A study of Rattus norvegicus with 12 samples.

Results

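The genes examined were Myc and the genes of the MAX-binding network around it, which were Max, Mxd1, Mxd3, Mxd4, Mxi1, Mnt and Mga. They were taken by symbol from the deposited gene table, and 7 of the 8 members had a row among its 30957 genes. No row carried the symbol Mxd3, which was therefore not analysed here. All 7 passed the filter on low counts, and each had between 108 and 1980 counts in every library.

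The libraries came from rat Schwann cells in 4 groups of 3. One group was titled Rsc96 and held the Schwann cells without macrophages (cells alone); the name was read as RSC96, an immortalised Schwann cell line of the rat. The second held Schwann cells co-cultured with monocyte-derived macrophages (MDM). In the third and the fourth the partners were tumour-associated macrophages (TAMs), induced with the supernatant of pancreatic cancer cells. The cells were BxPC-3 for the BxTAM group and MIA PaCa-2 for the MiaTAM group, both established human lines. All 4 groups used the Schwann cells as the measured cells. The design text counts 3 kinds of TAM, of which these 2 were analysed here. The labels call the cells alone and the MDM co-cultures untreated. They give neither the age, strain or passage of the cells nor the duration of co-culture. The species of the macrophages, and whether the 2 cell types were kept apart, are not given either. Whether the 3 libraries of each group stem from different cultures is not stated, so p-values measure the spread among these libraries, which may be technical.

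MYC is a transcription factor that drives cell growth and division. It binds DNA only as a pair with MAX, at E-boxes, short sites whose usual form is CACGTG, and the pair activates genes of ribosome assembly, nucleotide and polyamine synthesis and the cell cycle. The MXD proteins, MXI1 (a member of the same family) and MNT also pair with MAX, occupy the same sites, and recruit SIN3 and histone deacetylases, which repress transcription. MGA, a very large member, carries a T-box DNA-binding domain beside its MAX-binding part and belongs to a variant polycomb repressor complex. In many tissues high Myc is known from proliferating cells, and several Mxd genes are known to rise as cells leave the cycle.

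The E-box is the sequence through which the network acts, and 3 of the 7 members with a RefSeq promoter window carry one in their own promoter. Those 7 include Mxd3 but not Myc, which had no window to search. The windows are the 250 bases before an annotated gene start in GRCr8, a later build than the Rnor_6.0 of the expression table. They are printed 5′ to 3′ on the strand of the gene, with the match to CACGTG in capitals (the motif reads the same on both strands), and Mxd1, which has no match, is given beside the other three for contrast.
Mxd4: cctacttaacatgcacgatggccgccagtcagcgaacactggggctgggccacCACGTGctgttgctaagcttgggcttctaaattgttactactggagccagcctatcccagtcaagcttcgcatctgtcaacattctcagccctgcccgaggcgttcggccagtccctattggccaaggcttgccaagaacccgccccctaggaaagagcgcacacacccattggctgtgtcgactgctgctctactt
Mnt: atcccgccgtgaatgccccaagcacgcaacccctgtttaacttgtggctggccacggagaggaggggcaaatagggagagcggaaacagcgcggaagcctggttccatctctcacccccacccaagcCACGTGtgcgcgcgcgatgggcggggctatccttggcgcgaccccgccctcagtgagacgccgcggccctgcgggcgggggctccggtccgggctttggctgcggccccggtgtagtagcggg
Max: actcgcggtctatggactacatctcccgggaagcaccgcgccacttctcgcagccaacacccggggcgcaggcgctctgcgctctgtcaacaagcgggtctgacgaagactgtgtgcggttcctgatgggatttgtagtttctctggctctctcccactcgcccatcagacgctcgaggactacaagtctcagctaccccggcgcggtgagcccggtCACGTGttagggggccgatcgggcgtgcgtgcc
Mxd1: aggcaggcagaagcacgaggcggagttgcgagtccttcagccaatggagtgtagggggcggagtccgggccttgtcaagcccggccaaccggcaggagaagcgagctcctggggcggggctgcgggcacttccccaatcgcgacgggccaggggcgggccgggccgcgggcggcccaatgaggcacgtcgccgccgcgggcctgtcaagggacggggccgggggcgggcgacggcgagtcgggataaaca
The window of Mxd4 is chr14:80786531-80786780 on the + strand, that of Mnt is chr10:60197709-60197958 on the + strand, that of Max is chr6:101395291-101395540 on the - strand, and that of Mxd1 is chr4:120675130-120675379 on the - strand. Counted from the gene start, the E-box begins at -197 in Mxd4, at -123 in Mnt and at -33 in Max. Of all 27457 genes with such windows, 6.18% hold CACGTG in at least 1 of them. The variant CACGCG, searched on both strands, was in the windows of 0 of the 7 members and of 8.05% of all genes. Mxi1, Mxd1, Mxd3 and Mga had neither motif in these windows. A match is a stretch of letters and shows no binding.

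The libraries held 16555215 to 21506669 counts, and 12360 genes were tested. Levels are CPM, counts scaled to a common library total after TMM scaling (a correction for library composition). They are given per library or as mean ± SD over 3 libraries, and levels of different genes are compared only as FPKM, which divides by gene length. Changes are on the log2 scale, with their standard error after ±, and come from edgeR's quasi-likelihood test fitted to all 12 libraries. A change was called at a Benjamini-Hochberg adjusted p under 0.05. The levels of cell type markers that follow are CPM without TMM scaling. Of 13 Schwann and glial markers with a row, 6 were under 1 CPM in cells alone. Among these the defining Sox10, Cdh19 and Mbp were at 0 counts. Pmp22 and Vim stood at 94.1 and 1760 CPM, and Erbb3, Dhh and Egr2 at 7.19, 7.80 and 5.92. Of 8 fibroblast markers, 4 were under 1 CPM in cells alone. Thy1, Pdgfra, Pdgfrb and Col1a1 stood there at 266, 94.4, 19.7 and 17.0 CPM. Of 21 macrophage markers, 10 were at 0 in cells alone, 4 in MDM, 7 in BxTAM and 5 in MiaTAM, and their summed level was 28.4 to 31.0 CPM in cells alone, 62.6 to 68.8 in MDM, 60.1 to 61.8 in BxTAM and 66.8 to 70.8 in MiaTAM. Most of that sum was Itgax, at 17.3 CPM in cells alone and 45.8, 37.6 and 41.4 in MDM, BxTAM and MiaTAM. Csf1r also rose, from 3.37 CPM to 5.63, 7.69 and 9.24. Ptprc and Tyrobp held at most 2 counts in any group. Of the 21, 17 were under 1 CPM in cells alone and 15 in each co-culture. The part of these markers in the results was not tested. As these are bulk samples, fewer cells of a type and less RNA per cell cannot be told apart.

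In MDM co-culture the activator fell and its competitors rose together. All 7 members were called between MDM and cells alone, against a background of 65.1% of all tested genes. Mxd1, Mxd4, Mxi1 and Mnt rose, 4 of 7, where 32.0% of all genes were higher. Myc, Max and Mga fell, 3 of 7, where 33.1% were lower. The libraries of both groups did not overlap for any of the 7, as for 68.9% of all genes. In both TAM co-cultures Myc stood higher, and Mxd1 and Mxi1 lower, than in MDM co-culture, whereas the rise of Mxd4 over cells alone was present in all 3 co-cultures.

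Myc, the activating member, lies on chromosome 7, 102586313 to 102591237 of Rnor_6.0. It stood at 74.7, 77.6 and 80.4 CPM in the libraries of cells alone, at 49.7, 54.0 and 47.2 in MDM, at 73.1, 65.0 and 68.2 in BxTAM and at 67.9, 78.7 and 67.5 in MiaTAM. The MDM libraries lay below all 9 others, and library 2 of MiaTAM lay within the range of cells alone. MDM co-culture held 0.647 times the level of cells alone (-0.63 ± 0.06; edgeR, adjusted p = 3.13e-08). Against MDM, Myc rose 1.37-fold in BxTAM and 1.42-fold in MiaTAM (edgeR, adjusted p = 1.51e-05 and 3.08e-06).

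The order of Myc from low to high was MDM, BxTAM, MiaTAM, cells alone. BxTAM and MiaTAM did not differ beyond their spread (0.05 ± 0.06; 95% interval -0.08 to 0.18; edgeR, adjusted p = 0.592). BxTAM was lower than cells alone by a small margin (-0.17 ± 0.06; edgeR, adjusted p = 0.0205). That call was lost when any of 4 libraries was left out: cells alone 2 (adjusted p = 0.0593) or 3 (0.0992), or BxTAM 2 (0.105) or 3 (0.0551). It was also lost with upper-quartile scaling (adjusted p = 0.106). MiaTAM was not called against cells alone (-0.12 ± 0.06; edgeR, adjusted p = 0.0892), yet was lower once its library 2 was left out (-0.20, adjusted p = 0.00693).

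**Figure D1:**
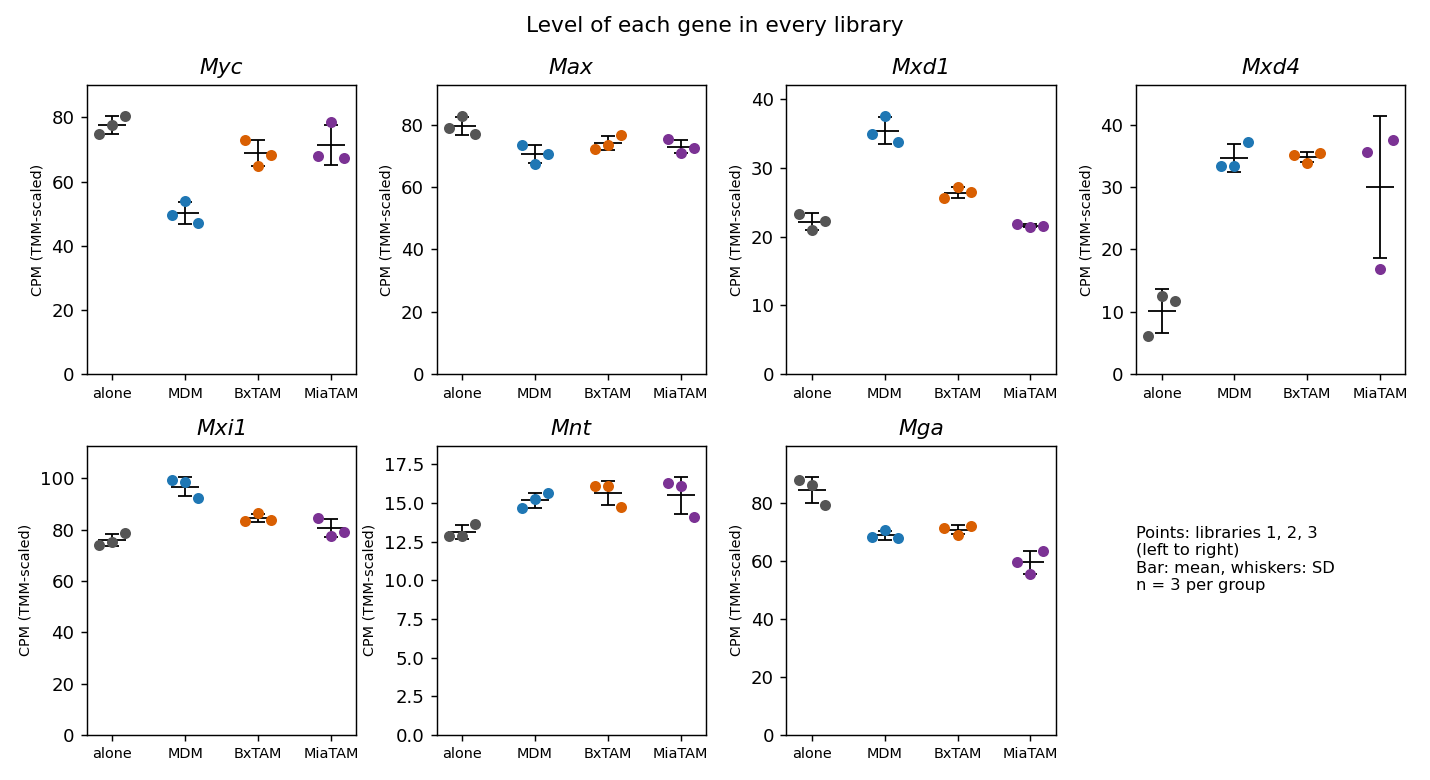
CPM of each gene (y axis, linear, from 0) in every library of the 4 groups (x axis), with points for libraries 1 to 3, a bar for the mean and whiskers for the SD (n = 3). Myc is lowest and Mxd1 and Mxi1 are highest in MDM, and Mxd4 is low in cells alone and in library 2 of MiaTAM (16.9 CPM).

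Max, the partner that MYC needs to bind DNA and that its competitors share, changed little. It lies on chromosome 6, 99984260 to 100011388. Its libraries gave 78.8, 82.8 and 76.9 CPM in cells alone, 73.5, 67.5 and 70.7 in MDM, 72.2, 73.5 and 76.8 in BxTAM, and 75.3, 71.0 and 72.5 in MiaTAM. Cells alone were the highest group, with BxTAM just below their lowest library. Max fell by 0.17 on the log2 scale in MDM (SE 0.05; edgeR, adjusted p = 0.00297) and by 0.12 in MiaTAM (SE 0.05; adjusted p = 0.0254). In BxTAM the value of -0.10 ± 0.05 was not called (edgeR, adjusted p = 0.0673), although it was when BxTAM library 3 was left out (adjusted p = 0.0499).

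The MiaTAM call on Max was fragile. It was lost without cells alone 1 or 2 (adjusted p = 0.0704 and 0.194), without MiaTAM 2 or 3 (0.0783 and 0.0624), with upper-quartile scaling (0.358), with only both groups in the fit (0.0743) and with DESeq2 (0.0671). The 3 co-cultures did not differ in Max: BxTAM and MiaTAM gave 0.07 ± 0.05 and 0.05 ± 0.05 against MDM (edgeR, adjusted p = 0.258 and 0.434). MiaTAM against BxTAM gave -0.02 ± 0.05, with a 95% interval of -0.12 to 0.08 (edgeR, adjusted p = 0.766).

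Mxd1 encodes a repressor known for its rise in differentiating cells, and it followed the reverse order of Myc between MDM and the TAM groups. It lies on chromosome 4, 118449882 to 118472179. Its libraries stood at 23.3, 20.9 and 22.4 CPM in cells alone, 34.9, 37.6 and 33.7 in MDM, 25.6, 27.2 and 26.5 in BxTAM, and 21.9, 21.5 and 21.6 in MiaTAM. MDM and BxTAM each lay above every library of cells alone, and MiaTAM fell inside the range of cells alone. Mxd1 rose 1.60-fold in MDM (0.67 ± 0.06; edgeR, adjusted p = 1.26e-08) and 1.19-fold in BxTAM (0.25 ± 0.07; adjusted p = 0.00259). MiaTAM gave -0.04 ± 0.07 against cells alone, with a 95% interval of -0.18 to 0.11 (edgeR, adjusted p = 0.666).

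The levels of Mxd1 differed between all 3 co-cultures. Against MDM it fell by 0.42 in BxTAM and by 0.71 in MiaTAM on the log2 scale (edgeR, adjusted p = 2.93e-05 and 3.53e-08). MiaTAM was in turn lower than BxTAM (-0.29 ± 0.07; edgeR, adjusted p = 0.00402). These calls held with each library left out in turn. The 3 MiaTAM libraries had the narrowest spread of any member and group, an SD of 0.206 CPM.

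Mxi1, a second repressor of the MXD family, moved the same way as Mxd1 with smaller steps. It lies on chromosome 1, 274030978 to 274090071. Cells alone had 74.2, 75.0 and 78.9 CPM, MDM had 99.5, 98.6 and 92.4, BxTAM had 83.4, 86.4 and 83.7, and MiaTAM had 84.5, 77.7 and 79.3. The MDM libraries lay above all others, and MiaTAM overlapped both BxTAM and cells alone. Mxi1 rose 1.27-fold in MDM and 1.11-fold in BxTAM (edgeR, adjusted p = 1.14e-06 and 0.0073). Against MDM it fell by 0.20 in BxTAM and by 0.26 in MiaTAM on the log2 scale (edgeR, adjusted p = 0.00212 and 9.64e-05).

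Neighbouring levels of Mxi1 were not separated in MiaTAM. It was not called against cells alone (0.08 ± 0.05; edgeR, adjusted p = 0.121) or against BxTAM (-0.07 ± 0.05; adjusted p = 0.293). Against cells alone it was called without cells alone 3 (0.12, adjusted p = 0.0406) and with upper-quartile scaling (0.16, adjusted p = 0.00518).

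Mxd4, a further MXD repressor, showed the widest change and the widest spread. It lies on chromosome 14, 81819415 to 81833456. Cells alone had 6.14, 12.5 and 11.8 CPM, MDM had 33.4, 33.4 and 37.2, BxTAM had 35.2, 33.9 and 35.4, and MiaTAM had 35.6, 16.9 and 37.6. All 9 co-culture libraries exceeded all 3 of cells alone, but library 1 of cells alone and library 2 of MiaTAM each lay far below the other libraries of their group. The counts behind those values were 108 in cells alone 1 and 281 in MiaTAM 2.

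Mxd4 rose 3.40-fold in MDM (1.76 ± 0.22), 3.41-fold in BxTAM (1.77 ± 0.22) and 2.96-fold in MiaTAM (1.57 ± 0.22). The adjusted p-values were 4.7e-07, 5.63e-07 and 3.02e-06 (edgeR). With both low libraries left out, a choice made after seeing the data, the changes were 1.52, 1.52 and 1.59 and all were called. The co-cultures did not differ from each other: MiaTAM against MDM gave -0.20 ± 0.19 (95% interval -0.59 to 0.20; edgeR, adjusted p = 0.426), and 0.07 without MiaTAM library 2. The spread of Mxd4 within groups, a pooled SD of 0.43 on the log2 scale, ranked 22 of 8870 genes with at least 10 CPM, for which the median was 0.07. The other 6 members had SDs of 0.05 to 0.09.

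Mnt encodes a repressor that is usually present in resting and dividing cells alike. It lies on chromosome 10, 61685645 to 61697603. The levels were 12.8, 12.9 and 13.6 CPM in cells alone, 14.6, 15.2 and 15.6 in MDM, 16.1, 16.1 and 14.7 in BxTAM, and 16.3, 16.1 and 14.1 in MiaTAM. Every co-culture library exceeded every library of cells alone, by a small margin. The rise was 1.16-fold in MDM, 1.19-fold in BxTAM and 1.18-fold in MiaTAM (edgeR, adjusted p = 0.0239, 0.00885 and 0.0119).

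The rise of Mnt in MDM was lost without cells alone 1 or 2 (adjusted p = 0.0589 and 0.0608), without MDM 3 (0.081), with DESeq2 (0.0587) and without both libraries low in Mxd4 (0.0654). In MiaTAM it was lost without MiaTAM 1 (adjusted p = 0.055) and without those 2 libraries (0.0946). Between co-cultures Mnt gave 0.04 ± 0.08 and 0.03 ± 0.08 for BxTAM and MiaTAM against MDM and -0.01 ± 0.08 for MiaTAM against BxTAM (edgeR, adjusted p = 0.711, 0.806 and 0.915).

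Mga, the polycomb-linked member, fell in every co-culture and furthest in MiaTAM. It lies on chromosome 3, 111699021 to 111759911. Cells alone had 87.9, 86.4 and 79.2 CPM, MDM had 68.2, 70.8 and 68.0, BxTAM had 71.5, 69.0 and 72.0, and MiaTAM had 59.7, 55.6 and 63.5. The libraries of cells alone lay above all others and those of MiaTAM below all others, while MDM and BxTAM overlapped. Mga fell by 0.29 in MDM, by 0.25 in BxTAM and by 0.50 in MiaTAM on the log2 scale (edgeR, adjusted p = 4.59e-05, 0.000241 and 4.75e-08). MiaTAM was lower than MDM (-0.21 ± 0.05; edgeR, adjusted p = 0.00346) and lower than BxTAM (-0.25 ± 0.05; adjusted p = 0.00235). BxTAM and MDM did not differ (0.04 ± 0.05; edgeR, adjusted p = 0.61).

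**Figure D2:**
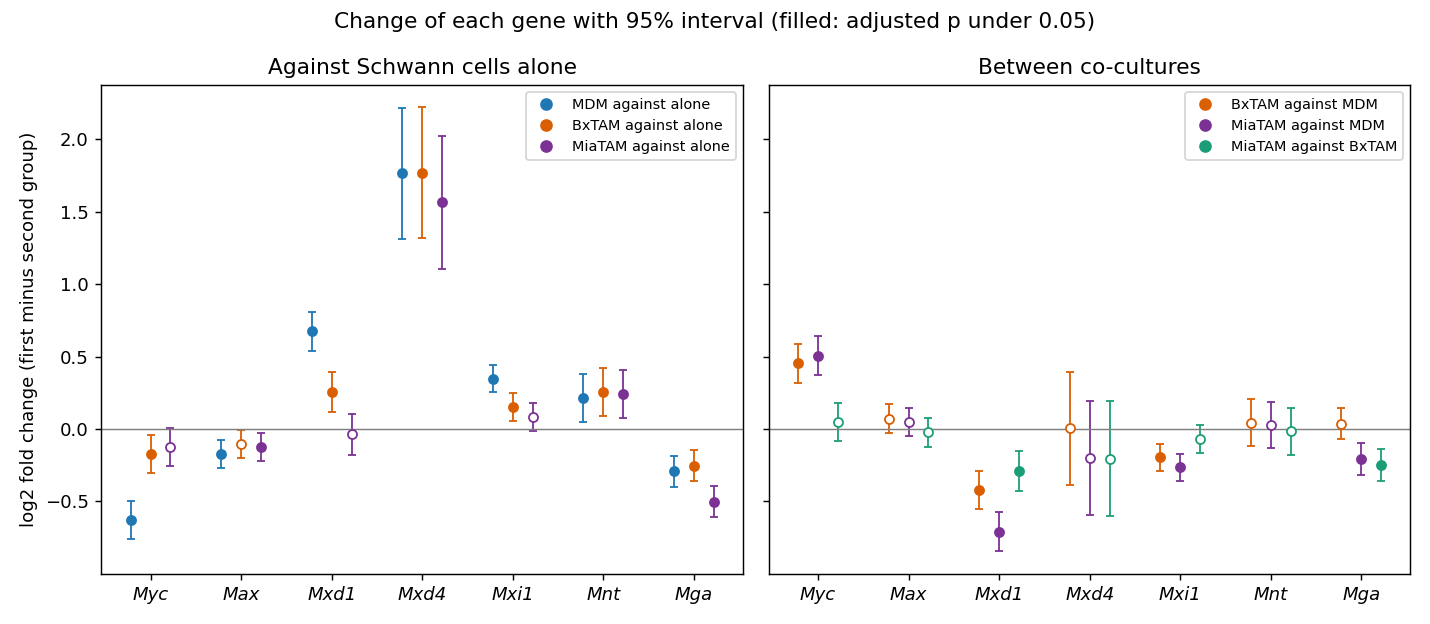
log2 fold change (y axis) of each gene (x axis) with its 95% interval, against cells alone (left) and between co-cultures (right), where filled points had an adjusted p under 0.05. Mxd4 stands highest in all 3 comparisons with cells alone (1.57 to 1.77), Myc lowest in MDM (-0.63), and Mxd1 lowest in MiaTAM against MDM (-0.71).

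Counted over members, 6 of 7 were called in BxTAM against cells alone, 4 higher and 2 lower, where 60.9% of all genes were called, 30.0% higher and 30.9% lower. The libraries of these groups were apart for 7 of 7 members and for 65.9% of all genes. In MiaTAM against cells alone 4 of 7 were called, 2 in each direction, where 65.1% of all genes were, 31.4% higher and 33.7% lower, and 4 of 7 were apart against 67.2%. Against MDM, 3 of 7 were called and apart in BxTAM (34.7% called and 47.9% apart over all genes). In MiaTAM 4 of 7 were (41.0% and 49.0%), 1 higher and 3 lower, where 19.8% and 21.1% of all genes were. MiaTAM against BxTAM gave 2 of 7, Mxd1 and Mga, both lower (24.2% called, 13.3% lower, 38.6% apart). The count of all genes called there was 2997, and 1978 without BxTAM 2, 1976 without BxTAM 3 and 1933 without MiaTAM 2. Of these calls 1356 were higher and 1641 lower, against 1621 and 1406 with upper-quartile scaling. The shares in MiaTAM against cells alone and between co-cultures lie near their background. The median change of the 7 was 0.21, 0.15 and -0.04 against cells alone in MDM, BxTAM and MiaTAM, and that of all tested genes was at most 0.00894 in size in any comparison. Comparisons with the same reference group share those 3 libraries.

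Compared per length, as FPKM, the activator and the shared partner were the most abundant. In cells alone Max stood at 36.2 ± 1.51 FPKM and Myc at 33.4 ± 1.23, followed by Mxi1 at 11.8 ± 0.366, Mnt at 10.4 ± 0.334, Mga at 7.02 ± 0.397, Mxd1 at 4.94 ± 0.249 and Mxd4 at 1.75 ± 0.606. The median tested gene had 11.5 FPKM. In MDM, Mxd1 reached 7.74 ± 0.358 and Mxd4 5.89 ± 0.406 FPKM, with Mga at 5.63 ± 0.0717, within the spread of Mxd4. FPKM rests on the gene length behind the table, from 1.27 kb for Mnt to 12.1 kb for Mga, and the place of Mnt in this order depends on that short length.

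The balance of Myc to Mxd1, Mxd4, Mxi1 and Mnt shifted with co-culture. Myc FPKM over the summed FPKM of Mxd1, Mxd4, Mxi1 and Mnt was 1.15, 1.17 and 1.15 in cells alone, 0.527, 0.560 and 0.500 in MDM, 0.839, 0.735 and 0.801 in BxTAM, and 0.790, 1.04 and 0.835 in MiaTAM. The ratio was above 1 in cells alone and lowest in MDM, and both TAM groups lay between without touching either. It was built after the members' levels were known and is given as a description without a test. Leaving Mxd4 out of the sum kept that order, with means of 1.23 ± 0.0328 in cells alone, 0.619 ± 0.0288 in MDM, 0.944 ± 0.0688 in BxTAM and 1.04 ± 0.0995 in MiaTAM. Mga, at 7.02 FPKM in cells alone, was not part of the sum, and Mnt enters it with a short gene length. Mxd3, a further MXD repressor, had no row and is also missing from the sum. Whether the ratio stands above 1 in cells alone, and how far it shifts, depends on these choices and this gap.

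Both parts of the ratio moved. The summed competitors went from 28.9 ± 1.05 FPKM in cells alone to 40.3 ± 0.113 in MDM, 37.2 ± 0.636 in BxTAM and 34.5 ± 2.34 in MiaTAM. Mxd4 made up 6.03 ± 1.98% of that sum in cells alone and 14.6 ± 1.02% in MDM. Myc per Max was 0.925 ± 0.0563 in cells alone, 0.676 ± 0.0698 in MDM, 0.879 ± 0.0689 in BxTAM and 0.927 ± 0.106 in MiaTAM. Myc per Mxd1 was 6.79 ± 0.513, 2.75 ± 0.0358, 5.05 ± 0.455 and 6.40 ± 0.616 in the same order.

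**Figure D3:**
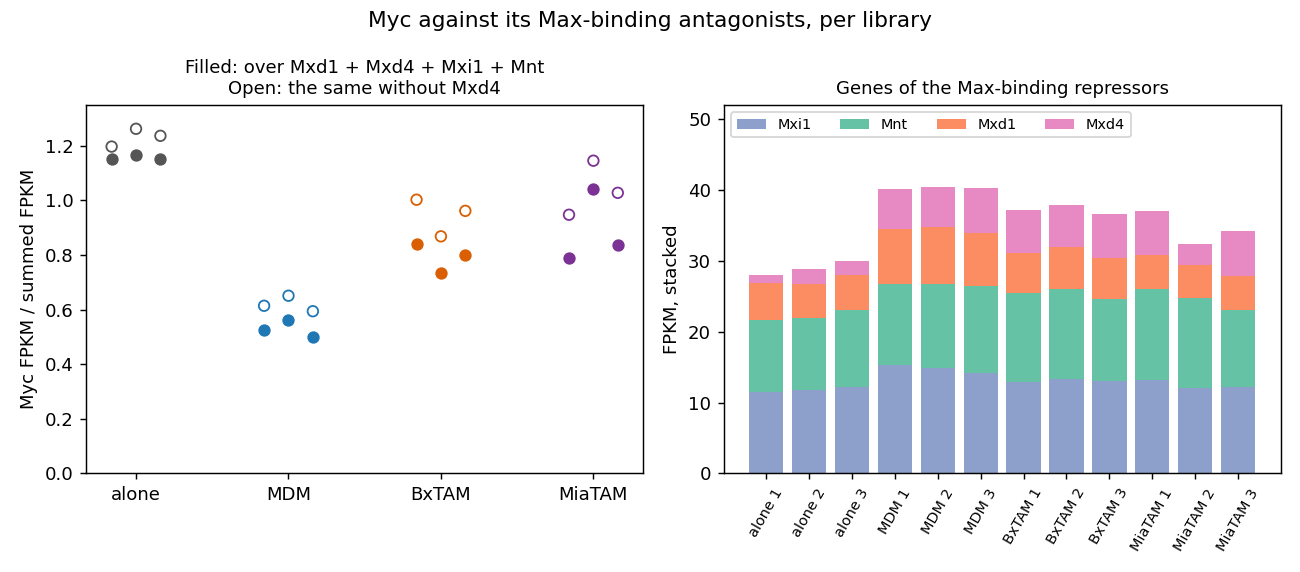
Left, the ratio of Myc FPKM to the summed FPKM of its competitors (y axis, from 0) per library in the 4 groups, filled with and open without Mxd4. Right, FPKM of the 4 repressor genes stacked per library, lowest in cells alone (28.9 ± 1.05 in sum) and highest in MDM (40.3 ± 0.113).

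The parallel arm of the network and other E-box factors were read from a list of 12, of which 9 were tested. In MDM against cells alone 6 were higher and 2 lower, where 32.0% and 33.1% of all genes were. Mycl, a close relative of Myc, rose from 4.09 ± 1.14 to 10.3 ± 1.70 CPM (1.32 ± 0.16; edgeR, adjusted p = 2.88e-07). It was also higher than in cells alone in BxTAM (0.89 ± 0.16) and MiaTAM (1.19 ± 0.16). Tfap4, an E-box factor known as a target of MYC, fell by 1.85, 1.87 and 1.54 in MDM, BxTAM and MiaTAM from 4.89 CPM in cells alone. Tfe3, a factor of lysosome genes, rose by 0.52 ± 0.06 in MDM.

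Mlx, the MAX-like partner of the glucose-sensing factor MondoA, differed less. Against MDM it rose by 0.15 ± 0.04 in BxTAM and 0.28 ± 0.04 in MiaTAM (edgeR, adjusted p = 0.00427 and 1.07e-05), while Usf2 fell by 0.27 and 0.47. Txnip, the best-known target of MondoA, rose by 1.17 ± 0.04 in MDM, 1.10 ± 0.04 in BxTAM and 0.79 ± 0.04 in MiaTAM over 452 CPM in cells alone. Arrdc4, a second such target, rose by 0.19, 0.30 and 0.18. Txnip was lower in MiaTAM than in BxTAM (-0.31 ± 0.04; edgeR, adjusted p = 2.88e-05).

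Of the SIN3 and histone deacetylase corepressors through which MXD proteins and MNT act, 17 were tested. Against cells alone, 3 were higher and 7 lower in MDM, 2 and 7 in BxTAM, and 3 and 10 in MiaTAM, where 33.1%, 30.9% and 33.7% of all genes were lower. The shares lower in MDM and BxTAM lie near that background. The histone-binding subunits Rbbp7 and Rbbp4 fell by 0.56 and 0.49 in MDM, and Rbbp7 by 0.70 in MiaTAM. Hdac2, a deacetylase, fell by 0.37 in MDM, and Sin3b, a scaffold, rose by 0.41 in MiaTAM. Against MDM the SIN3-associated gene Ing1 fell by 0.58 in BxTAM and 0.60 in MiaTAM, and the scaffold gene Sin3a by 0.16 and 0.21.

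Of 11 tested genes of the MGA polycomb complex, 2 were higher and 4 lower in MDM than in cells alone, 2 and 5 in BxTAM, and 3 and 6 in MiaTAM. Over all genes 32.0%, 30.0% and 31.4% were higher and 33.1%, 30.9% and 33.7% lower, so the counts in MDM lie near or under the background. Tfdp1, a dimer partner of E2F factors, fell by 1.04, 0.86 and 0.75, and Wdr5, a scaffold that also binds MYC, by 0.44, 0.45 and 0.41. Pcgf6, a defining subunit, fell by 0.51 ± 0.08 in MiaTAM. Of 15 tested coactivators of MYC with its repressive partner MIZ1, 2 were higher and 8 lower in MDM, 2 and 9 in BxTAM, and 1 and 8 in MiaTAM against cells alone, to be read against the same shares. Zbtb17, which encodes MIZ1, rose by 0.70 ± 0.06 in MDM and was lower in BxTAM than in MDM (-0.40 ± 0.06). Ruvbl1, an ATPase of chromatin complexes, fell by 0.67, 0.84 and 0.83.

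Of 16 tested genes that govern the stability of the MYC protein, 1 was higher and 9 lower in MDM, 2 and 10 in BxTAM, and 3 and 10 in MiaTAM against cells alone. The list mixes genes that protect MYC with genes that promote its decay, so these counts give no direction for its stability. The genes named below are all of the protecting kind. Over all genes 33.1%, 30.9% and 33.7% were lower in these comparisons. Cip2a (named RGD1310335 in the table), an inhibitor of the phosphatase that promotes MYC decay, fell by 1.16, 1.77 and 1.87. Set, another inhibitor of that phosphatase, fell by 1.16 in MDM and 1.05 in MiaTAM. Plk1 and Aurka, mitotic kinases known to shield MYC family proteins, were lower in BxTAM than in MDM by 1.08 and 0.70. MYC protein was not measured here.

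Genes known as activated by MYC were mostly lower in all 3 co-cultures than in cells alone. Myc mRNA itself changed less in BxTAM and MiaTAM than in MDM. The part of Myc in the levels of these genes was not tested. This list, like the others here, was chosen with earlier results of these data known, so its counts are a description. Of 37 tested, 4 were higher and 32 lower in MDM against cells alone, with a median of -0.54, where 33.1% of all genes were lower. In BxTAM 0 were higher and 33 lower, with a median of -0.55, where 30.9% of all genes were lower and Myc itself was at -0.17. In MiaTAM 1 was higher and 33 lower, with a median of -0.41, where 33.7% of all genes were lower and Myc was at -0.12. Shmt1, which feeds folate-bound carbon into nucleotide synthesis, fell from 28.8 CPM to 6.36, 5.86 and 7.67 in MDM, BxTAM and MiaTAM. Odc1, the first enzyme of polyamine synthesis, fell from 291 CPM to 143 in MDM and 161 in BxTAM (edgeR, adjusted p = 6.65e-15 and 9.03e-14).

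Between co-cultures the same list was divided, with more genes called higher than lower against MDM. In BxTAM against MDM, where Myc rose by 0.45, 12 of 37 were higher and 6 lower and the median was 0.00, with 17.4% and 17.3% of all genes higher and lower. In MiaTAM against MDM, where Myc rose by 0.51, 17 were higher and 10 lower and the median was 0.12, with 19.8% and 21.1% of all genes higher and lower. Tfrc, the transferrin receptor, fell by 1.14 and 1.17 in those comparisons, and had the smallest p of the list in both. In MDM it had stood above cells alone, at 594 against 292 CPM. Npm1, a nucleolar chaperone, fell by 0.48 in MiaTAM and Nampt, an enzyme of NAD synthesis, by 0.43 and 0.57. S phase and mitosis genes moved beside these lists: all 18 of 18 were lower against cells alone in each co-culture, with medians of -1.54, -1.82 and -1.74. Over all genes 33.1%, 30.9% and 33.7% were lower there. Against MDM they were divided, with 8 higher and 7 lower in BxTAM (median 0.11) and 9 and 6 in MiaTAM (median 0.17). The part of S phase and mitosis genes in the result was not tested.

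Genes known as repressed by MYC went the other way. Of 10 tested, 9 were higher and 0 lower in MDM against cells alone, with a median of 0.48. In BxTAM 7 were higher and 2 lower (median 0.30) and in MiaTAM 6 and 2 (median 0.23). Over all genes 32.0%, 30.0% and 31.4% were higher in these comparisons. Cdkn1a, the cyclin-dependent kinase inhibitor p21, went from 211 CPM in cells alone to 348 in MDM, 263 in BxTAM and 259 in MiaTAM. Against MDM, 1 was higher and 5 lower in BxTAM, and 1 and 6 in MiaTAM, where 17.3% and 21.1% of all genes were lower. Clu, a secreted chaperone, was the exception in both, higher by 0.60 ± 0.04 and 0.72 ± 0.04. Ndrg1, a stress-responsive gene repressed by MYC proteins, was higher by 0.47 in MDM against cells alone and lower by 0.64 ± 0.05 in BxTAM than in MDM.

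**Figure D4:**
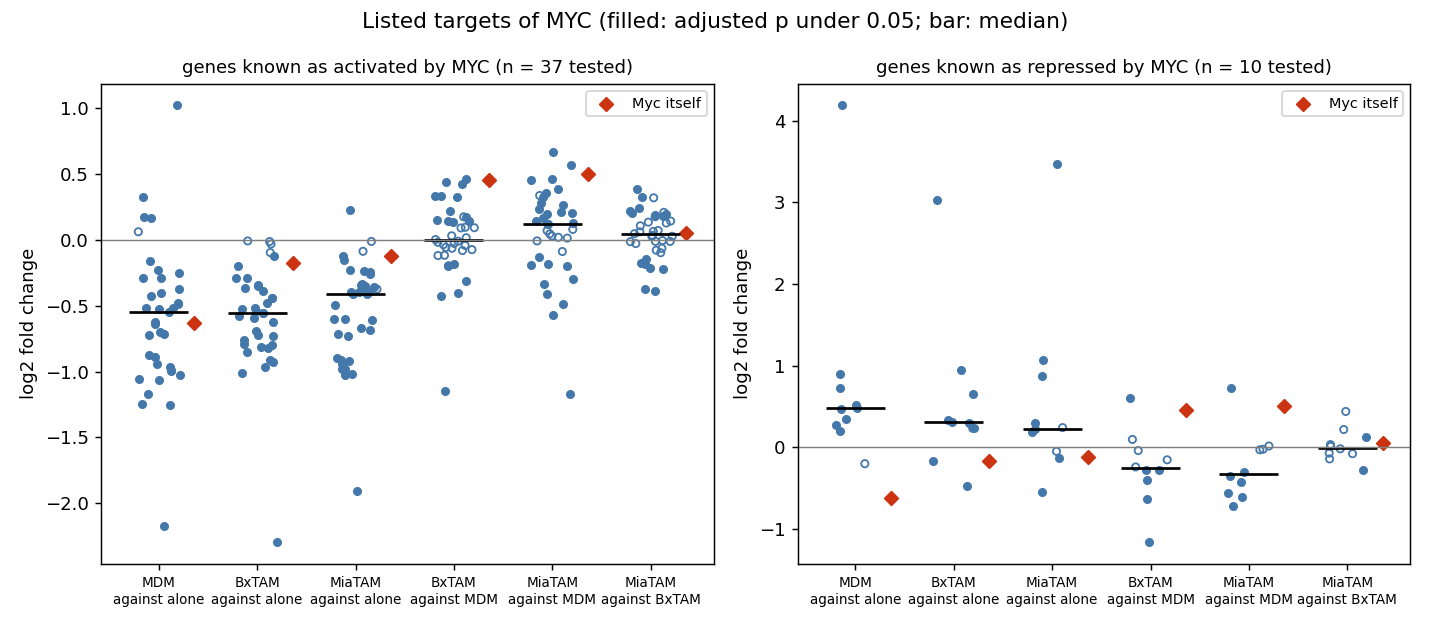
log2 fold change (y axis) of every tested gene of the lists activated (left) and repressed (right) by MYC in the 6 comparisons (x axis), with a bar at the median, filled points for an adjusted p under 0.05 and a diamond for Myc itself. In BxTAM and MiaTAM against cells alone the activated genes have medians of -0.55 and -0.41, below Myc at -0.17 and -0.12.

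The genes whose levels followed each member most closely were found among 2081 genes with at least 10 CPM and an SD of at least 0.25 over the 12 libraries. The measure was Pearson's r over the 12 libraries, which fall into 4 groups, so r mostly reflects the order of group means. Cebpd, an inflammatory transcription factor, was closest to Myc (r = 0.972), at 18.3 CPM in cells alone, 7.39 in MDM and 17.2 in BxTAM. Tmem98 (0.964) and Slc25a24 (0.943) came next. Closest to Mxd1 were Rsad2 (0.967), an antiviral enzyme, Bcl2l11 (0.967), which encodes the cell death protein BIM, and Car12 (0.965). For Mxi1 they were Tgfb3 (0.974), Mmp13 (0.972), a collagenase, and Ddit3 (0.969), which encodes the stress factor CHOP and went from 57.5 CPM in cells alone to 203 in MDM.

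The other members had partners of their own. For Mxd4 they were Sh3kbp1 (r = 0.958), Epha4 (0.937) and Unc13a (0.934). For Mga they were Smg6 (0.975), Cd48 (0.965) and Wrn (0.963), a helicase of DNA repair. Mnt was followed by Paqr7 (0.899), Ube2j1 (0.897) and Phf1 (0.895), and Max by Riok2 (0.907), Uchl3 (0.905) and Dhx29 (0.904). These values describe the 12 libraries and carry no test.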

How the data were processed

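Messenger RNA of 12 libraries was sequenced after column extraction and stranded library preparation, per the labels' protocols. HISAT2, CASAVA, Rnor_6.0 and StringTie 1.3.0 are named, per the submitters' processing notes. Neither the counting tool nor the annotation release or strand setting is given in the sources used here. Whether reads of genes that overlap on opposite strands were told apart is therefore not known. The table deposited by the authors holds raw counts per gene and, beside them, FPKM, scaled to gene length and library total. Columns were matched to samples by the labels' short descriptions, in which the cells alone are HSC96 and the MDM libraries PBMC.

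Counts were analysed in edgeR 4.0.16 under R 4.3.3 with filterByExpr, which left 12360 of 30957 genes, TMM scaling (factors 0.98 to 1.01), and 1 quasi-likelihood fit of 12 libraries with 1 mean per group and no block. The spread had 8 residual and 11.97 prior degrees of freedom. Adjusted p-values are Benjamini-Hochberg over all tested genes in each of the 6 comparisons, and the standard error is the log2 change over the square root of F. Groups were taken from sample titles. No pair of libraries within a group agreed within sampling noise. The fit was tested on simulated data in which all genes shared 1 spread, which does not represent genes as variable as Mxd4.

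The members and gene lists were chosen with earlier results of these data known. Beside the members, the genes named are the 3 with the smallest p per list and comparison, some of which are left out for brevity, and the 3 closest in pattern to each member. Some genes named by this rule in 1 comparison are also given in others. Promoter windows are from RefSeq (GRCr8), where Mxd1, Mxd3, Mxd4, Mxi1, Mnt, Max and Mga had an entry. Alternatives were DESeq2 size factors, upper-quartile scaling, the DESeq2 1.42.0 Wald test, no filter, limma-trend (limma 3.58.1) on log2(FPKM + 1) and log2(FPKM + 0.1), the replicate number as a block, fits of both groups alone, and each library left out.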

Additional observations from a re-analysis of the deposited data

Results flagged for a closer look

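The levels of Mxd1 and Mga differed between the 2 TAM co-cultures, so that their changes from MDM co-culture differ by the same amounts. These are the values of MiaTAM against BxTAM already given, since the MDM libraries cancel, and no further test was made. Mxd1 gave -0.29 ± 0.07 on the log2 scale (edgeR, adjusted p = 0.00402), and all 3 MiaTAM libraries lay below all 3 BxTAM libraries. Mga gave -0.25 ± 0.05 (edgeR, adjusted p = 0.00235), again without overlap. Both were called with each library left out in turn.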

How the results depend on the processing

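Of 26 called changes of members, 22 were called in the same direction under every alternative run, and 4 lost the call under some (Myc in BxTAM, Max in MiaTAM, and Mnt in MDM and MiaTAM, all against cells alone). No called change reversed. Changes that were not called turned sign near 0. With upper-quartile scaling these were Mxd1 in MiaTAM against cells alone (0.0384) and Mnt in MiaTAM against BxTAM (0.0035). With both libraries low in Mxd4 left out they were Mxd1 in MiaTAM against cells alone (0.0052), Mxd4 in MiaTAM against MDM (0.0742) and BxTAM (0.0702), and Myc in MiaTAM against BxTAM (-0.0232). Leaving out 1 library at a time gave ranges of -0.0643 to 0.0136 for Mxd1 in MiaTAM against cells alone, -0.0221 to 0.0605 for Mxd4 in BxTAM against MDM, -0.39 to 0.0744 for Mxd4 in MiaTAM against MDM and -0.39 to 0.0703 against BxTAM, -0.0115 to 0.0918 for Mnt in MiaTAM against MDM and -0.0545 to 0.0492 against BxTAM, -0.0466 to 0.0051 for Max and -0.0232 to 0.10 for Myc in MiaTAM against BxTAM. The cause was not tested. All genes called in MiaTAM against BxTAM numbered 2997, from 1933 to 3113 with 1 library left out (1978 without BxTAM 2, 1976 without BxTAM 3, 1933 without MiaTAM 2) and 1816 without both libraries low in Mxd4, where fewer samples entered.

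Whether the replicate numbers pair the samples is not stated. No pairing was seen, which 3 libraries a group cannot exclude. Deviations of same-numbered libraries correlated from -0.127 to 0.0892, and in 12 of 36 cases a library correlated best with its own number. With the replicate block the members called stayed at 7, 6, 4, 3, 4 and 2 in the 6 comparisons, and all genes called in MDM against cells alone went from 8047 to 8046. With upper-quartile scaling the median of all genes in MiaTAM against cells alone stood at 0.0676, against -0.00629 with TMM. Mxd4 and Mnt had the lowest counts of any member in a single library, at 108 and 226. Over all libraries Mnt had the fewest, 3278, while Mxd4 had 6083, above Mxd1 at 5836. The spread within groups was 0.43 for Mxd4 and 0.08 for Mnt as an SD on the log2 scale.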
